A study of Mus musculus with 12 samples.

Results

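The genes described here encode receptors through which somatostatin and dopamine act on the anterior pituitary. They are the 5 somatostatin receptor genes *Sstr1*, *Sstr2*, *Sstr3*, *Sstr4* and *Sstr5* and the dopamine receptor genes *Drd2* and *Drd4*, 7 genes in all, taken by symbol from the 55304 genes of the expression table. The table holds RNA-seq values of cells sorted by fluorescence from the anterior pituitary of male *Pomc*-eGFP mice on a C57Bl6/J background, which were 8 weeks old when they entered the study. In these mice the *Pomc* promoter drives enhanced green fluorescent protein, so that corticotrophs, the cells that make ACTH, can be collected, and every group carried the transgene. Control mice drank water only. DEX mice received dexamethasone, a synthetic glucocorticoid, at 2.5 µg/ml in their drinking water for 4 weeks and were collected at the end of it. Mice of the other groups had the same 4 weeks of DEX and were collected 1 week or 4 weeks after its withdrawal. Each group had 3 libraries, each made from a pool of 2 to 3 pituitaries. A pool is therefore the replicate, and a sorted pool can hold any cell that passed the fluorescence gate.

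Somatostatin and dopamine both restrain hormone release from the pituitary. Their receptors studied here couple to inhibitory G proteins, which lower the activity of adenylyl cyclase and open potassium channels gated by G proteins, so that the cell holds less cyclic AMP and is less excitable. Somatostatin receptors act mainly on growth hormone and thyrotropin release, and those of corticotrophs can curb ACTH. Dopamine acting on *Drd2* is the main brake on prolactin release from lactotrophs and on the melanotrophs of the intermediate lobe. In corticotroph tumour cells, glucocorticoids are known to lower the type 2 somatostatin receptor more than the type 5 receptor. The comparisons asked whether the level of each receptor differed under DEX and whether it returned towards control after withdrawal.

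The libraries held 7719894 to 12848078 reads on genes, and 1 read was worth 0.0787 to 0.127 normalised read counts, the unit of all levels here (reads relative to the scaled size of each library, as CPM). The corticotroph hormone *Pomc* was measured at 34562 to 74260 in control pools, 4241 to 8521 in DEX pools, 43612 to 284740 at 1 week and 48189 to 80216 at 4 weeks. Growth hormone, *Gh*, was also abundant in all pools, at 78901 to 221267 in controls and 67563 to 104242 under DEX, so the sorted pools held somatotroph RNA as well. Of the other corticotroph markers, the factor *Tbx19* and the vasopressin receptor *Avpr1b* had higher means under DEX than in control (919 against 302, and 100.4 against 32.6). The means of *Crhr1*, *Pcsk1* and *Neurod1* were lower under DEX than in control (83.4 against 123, 229 against 345, and 28.2 against 29.7). None of these genes passed the limma test between DEX and control (adjusted p = 0.685 for *Tbx19* and 0.741 for *Avpr1b*). Of the melanotroph list, *Pax7* lay between 0 and 0.336 in all pools, and the prohormone convertase *Pcsk2* between 38.3 and 129.7. In such bulk libraries, fewer cells of a type and less RNA per cell cannot be told apart.

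The window before the start of *Sstr2* is shown because it was the receptor gene with a difference between groups that passed the main test, and that before *Drd2* because it was the most abundant receptor per exon length. A CREB binding element, the cyclic AMP response element TGACGTCA (a palindrome, so the same on both strands), was searched in the 250 bases before each start site of the RefSeq promoter table (build GRCm38.p6). The table held 5 of the 7 genes. Capitals mark the element. Both genes are on the plus strand, and the windows lie at chr11:113619077-113619326 for *Sstr2* and at chr9:49340153-49340402 for *Drd2*.
Sstr2: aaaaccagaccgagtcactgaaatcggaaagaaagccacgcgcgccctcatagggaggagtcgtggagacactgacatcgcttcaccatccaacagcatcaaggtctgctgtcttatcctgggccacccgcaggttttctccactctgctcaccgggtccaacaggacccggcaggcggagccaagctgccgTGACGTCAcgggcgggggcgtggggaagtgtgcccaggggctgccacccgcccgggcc
Drd2: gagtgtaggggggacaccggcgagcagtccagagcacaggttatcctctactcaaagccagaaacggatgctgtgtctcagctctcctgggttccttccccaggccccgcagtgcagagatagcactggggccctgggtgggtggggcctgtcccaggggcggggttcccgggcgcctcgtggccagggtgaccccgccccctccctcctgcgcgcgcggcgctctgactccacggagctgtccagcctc

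Of the receptor genes with a window, *Sstr2* alone held the element, where it began 58 bases before the start site. It was present in 508 of 32851 promoter windows, or 1.55%. The glucocorticoid receptor motif AGAACA, searched on both strands in the same windows, was found in 16.1% of promoters and in neither sequence shown. These matches describe letters in a window and were not tested as binding sites. The *Sstr2* gene spans chr11:113619342-113626028 on the plus strand of GRCm38, with 2143 bases of exon. It lies wholly inside *Slc39a11*, a zinc transporter gene on the opposite strand, but shares 0 exonic bases with that gene's exons.

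The type 2 somatostatin receptor *Sstr2* was lowest under DEX and highest 4 weeks after withdrawal. The control pools measured 1.73, 1.88 and 3.15, with a mean of 2.26 ± 0.78 (SD, n = 3). The DEX pools measured 0.663, 0.491 and 0.449, with a mean of 0.534 ± 0.113 (SD, n = 3). All DEX pools lay below all pools of every other group. At 1 week the pools measured 1.81, 4.84 and 7.00, with a mean of 4.55 ± 2.61 (SD, n = 3). At 4 weeks they measured 2.77, 7.01 and 12.3, with a mean of 7.35 ± 4.76 (SD, n = 3). Both withdrawal groups spread widely and overlapped with each other and with control. The DEX values rested on 8, 6 and 4 reads, 18 in all, with an exact Poisson 95% interval of 10.7 to 28.4 reads that covers counting error only.

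**Figure D1:**
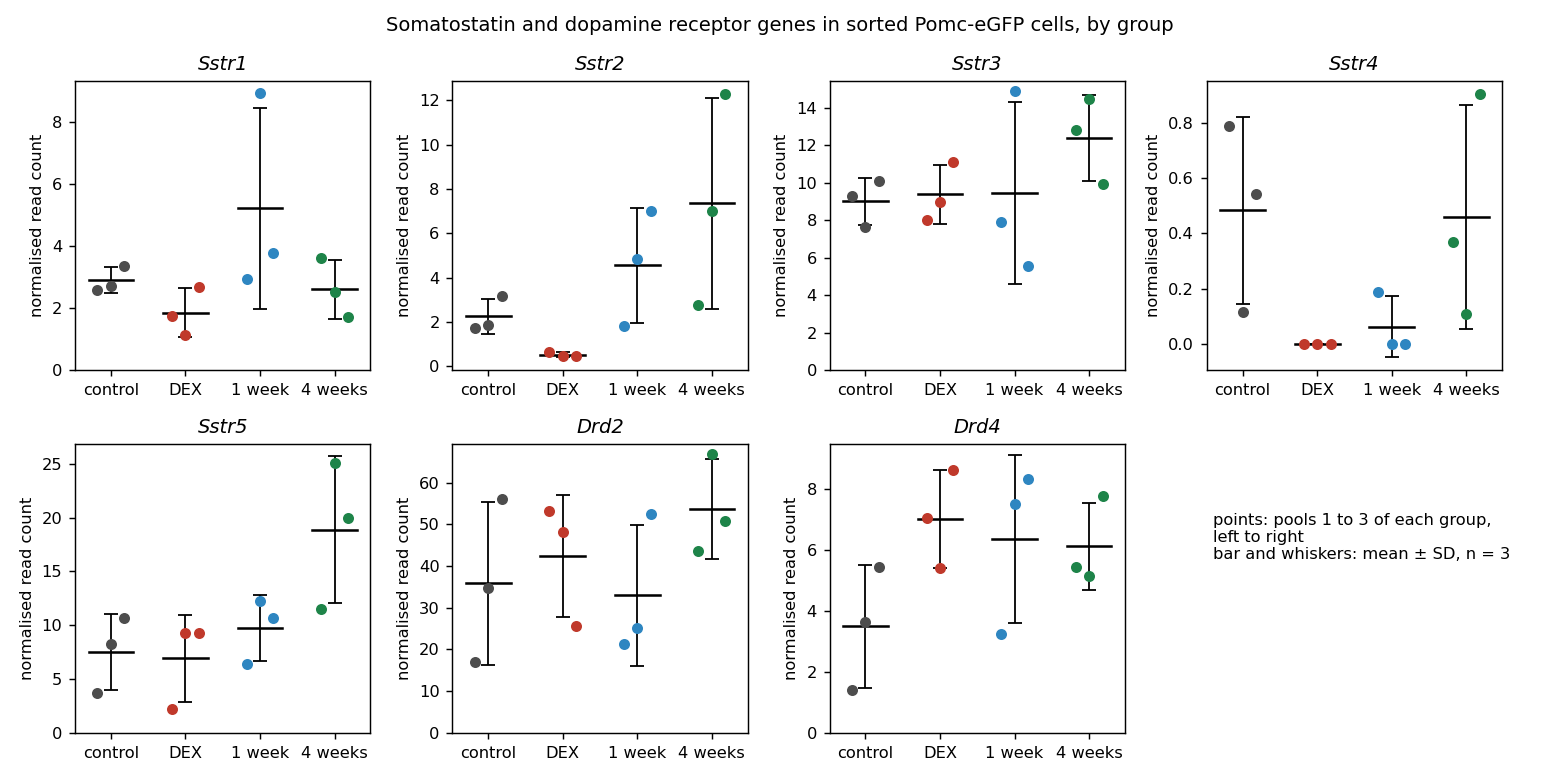
Normalised read counts of the 7 receptor genes (vertical axes, each from its own 0) in control, DEX, 1 week and 4 weeks after withdrawal (horizontal axes). Points are the 3 pools of a group and bars with whiskers are the mean ± SD; the *Sstr2* pools under DEX, at 0.449 to 0.663, lie below all other pools, and the *Sstr4* pools under DEX are at 0.

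Of the 6 pairwise comparisons, *Sstr2* passed the test in that of 4 weeks with DEX. Its mean was 13.8-fold higher at 4 weeks, with a log2 fold change of 3.33 ± 0.61 (SE) on the log2(value + 0.1) scale and a limma adjusted p of 0.0208, Benjamini-Hochberg over all 24736 genes tested. In this comparison 0.873% of all genes passed, and *Sstr2* was 1 of the 7 receptor genes. The exact permutation p between these groups was 0.1, the smallest that 3 pools against 3 allow. The call was lost when any 1 of 5 pools was left out, with limma adjusted p values of 0.0818 without DEX pool 1, 0.0519 without DEX pool 2, 0.105 without DEX pool 3, 0.110 without the 4 weeks pool 2 and 0.114 without the 4 weeks pool 3. It was also lost with only these groups in the model (adjusted p = 0.0791), while the log2 fold change stayed between 2.27 and 3.90 under all alternatives.

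At 1 week *Sstr2* was 8.52-fold higher than under DEX in mean level, with a log2 fold change of 2.69 ± 0.61 (SE) and a limma adjusted p of 0.0646. It did not pass the main test, but passed edgeR's quasi-likelihood test on the recovered reads (adjusted p = 0.0414), DESeq2 (adjusted p = 8.28e-04) and the limma fit without the 1 week pool 1 (adjusted p = 0.0268). In this comparison 0.433% of all genes passed in the main test, with 0 of the 7 receptor genes. The exact permutation p was again 0.1. Against control, the 3 other groups share the same control pools, so these values are not independent. The log2 fold change was -1.86 ± 0.61 (SE) for DEX, 0.83 ± 0.61 for 1 week and 1.47 ± 0.61 for 4 weeks, with limma adjusted p values of 0.439, 1 and 0.750. The control mean was 4.23-fold the DEX mean, and the 4 weeks mean was 3.26-fold the control mean. None of these passed by limma, edgeR or DESeq2. Between 4 weeks and 1 week the log2 fold change was 0.64 ± 0.61 (SE; limma adjusted p = 1).

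Over all 4 groups, the F test of limma gave *Sstr2* an unadjusted p of 3.53e-04, rank 121 among the genes tested, and an adjusted p of 0.0722. None of the 7 receptor genes passed this test, against 0.315% of all genes, and 3 had an unadjusted p under 0.05, against 9.21% of all genes. *Sstr2* passed with edgeR's quasi-likelihood test (adjusted p = 0.0333), edgeR's likelihood ratio test (6.44e-06) and DESeq2 (1.05e-04). It also passed in the limma fits without the 1 week pool 1 (adjusted p = 0.0332) and without the 1 week pool 3 (0.0484). The exact permutation test on *Sstr2* alone, over the 15400 divisions of the pools into 4 groups, gave p = 0.00409.

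Some markers of cells other than corticotrophs also differed between the groups. The macrophage list (*Csf1r*, *Adgre1*, *C1qa*, *Cd74*, *Ptprc* and *Aif1*) summed to 43.0 to 119 in control pools, 15.8 to 23.1 under DEX, 75.3 to 125 at 1 week and 84.3 to 184 at 4 weeks. Like *Sstr2*, this sum was lower in all DEX pools than in all other pools. Between 4 weeks and DEX, 1 of its 6 genes passed, namely *Cd74*, the invariant chain of MHC class II, with 3.48 to 10.4 under DEX and 70.4 to 155 at 4 weeks (limma adjusted p = 4.60e-04). In the pools not under DEX, *Cd74* made up most of the sum. Without it the other 5 genes, a sum added after the values were seen, came to 13.4 to 15.3 in control, 12.3 to 15.4 under DEX, 14.3 to 35.7 at 1 week and 13.9 to 37.8 at 4 weeks, so that the DEX pools overlapped with every other group. *Csf1r*, a growth factor receptor of macrophages, was at 9.36 to 12.4 under DEX and 8.70 to 10.7 in control. *C1qa* went the other way, at 0.736 to 1.46 under DEX and 1.57 to 2.83 in control, and its DEX pools lay below all its other pools. The means of *Adgre1*, *Ptprc* and *Aif1* were also lower under DEX than in control (0.389 against 0.957, 0.765 against 0.867, and 0.268 against 0.398). Of the 6 genes, 5 were above 0 in every pool. The endothelial list summed to 6.77 to 64.0 in control, 3.15 to 9.32 under DEX, 24.9 to 163 at 1 week and 76.0 to 145 at 4 weeks. Between 4 weeks and DEX 4 of its 6 genes passed, and 4 of the 6 were above 0 in every pool. The pericyte and fibroblast list summed to 2.75 to 26.2 in control and 0.745 to 8.42 under DEX, which overlapped. It summed to 9.32 to 30.8 at 1 week and 38.3 to 54.4 at 4 weeks. Between 4 weeks and DEX 1 of its 5 genes passed. The somatotroph list summed to 79121 to 221563 in control, 67894 to 104436 under DEX, 92074 to 221152 at 1 week and 150647 to 266215 at 4 weeks. Between 4 weeks and DEX 0 of its 3 genes passed. *Slc39a11*, the gene around *Sstr2*, measured 31.5, 35.3 and 34.3 in control, 27.1, 27.8 and 30.6 under DEX, 45.6, 83.1 and 20.8 at 1 week and 56.2, 68.1 and 94.3 at 4 weeks. Its log2 fold change between 4 weeks and DEX was 1.32 ± 0.37 (SE; limma adjusted p = 0.131). As for *Sstr2*, its DEX pools lay below its control and 4 weeks pools, and its 4 weeks pools had the same order as those of *Sstr2*. At 1 week, by contrast, the pool with the lowest *Slc39a11* value had the highest *Sstr2* value of that group. Judged from the kits named, the libraries do not mark strand, so reads of unspliced *Slc39a11* RNA and of *Sstr2* cannot be told apart. The part of these markers and of *Slc39a11* in the *Sstr2* values was not tested.

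**Figure D2:**
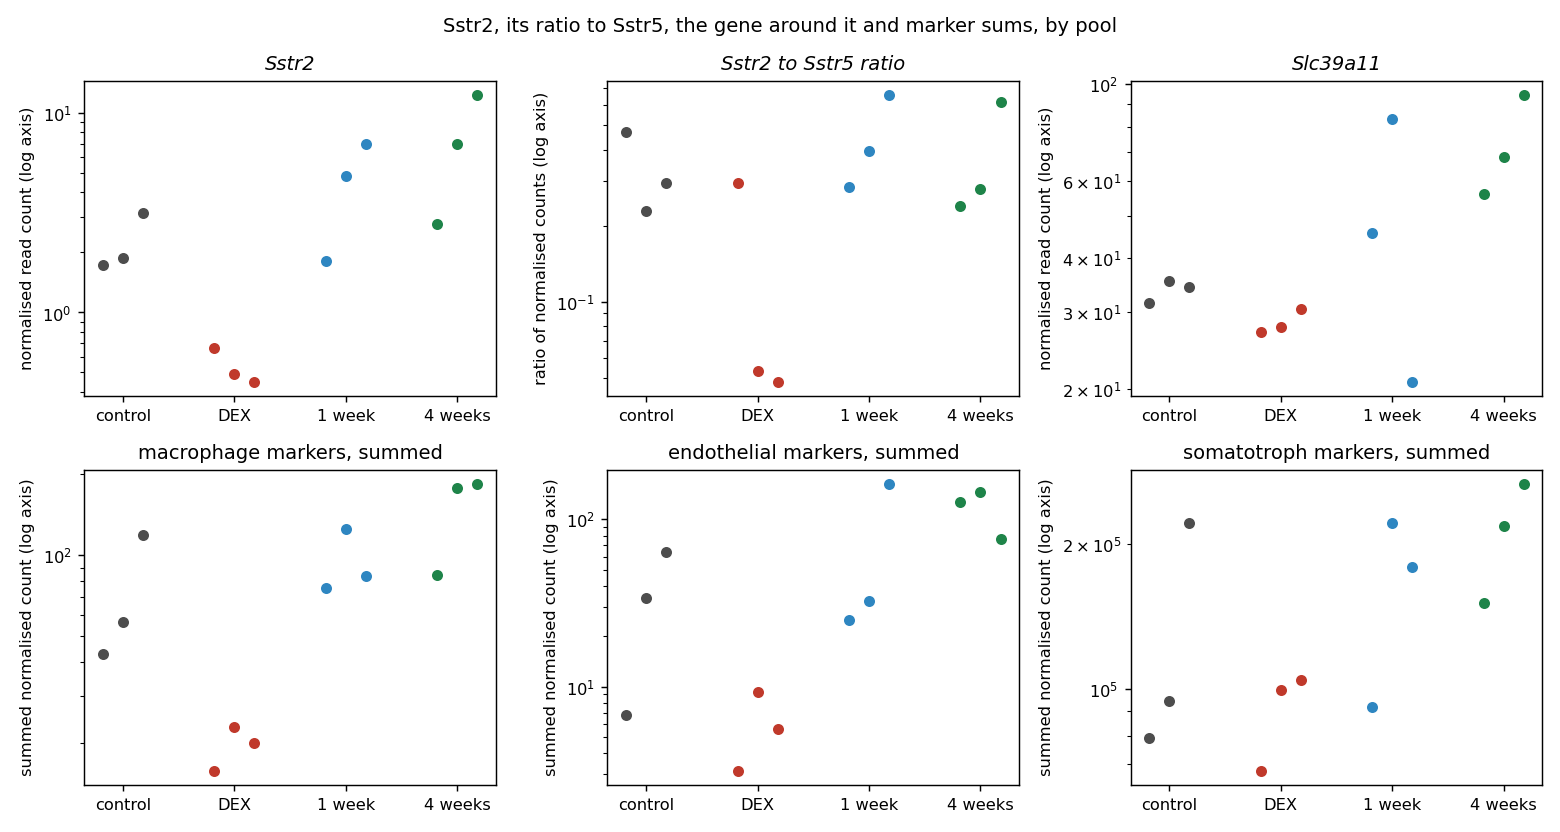
Values of each pool on log axes for *Sstr2*, the *Sstr2* to *Sstr5* ratio, *Slc39a11* and the summed macrophage, endothelial and somatotroph markers, in normalised read counts (a plain ratio in the second panel), with pools 1 to 3 from left to right within each group. The DEX pools are lowest for *Sstr2* (0.449 to 0.663) and for the macrophage sum (15.8 to 23.1), which overlaps between the groups without *Cd74*, whereas for *Slc39a11* the lowest value, 20.8, is that of a 1 week pool.

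The type 5 somatostatin receptor *Sstr5* lies on the minus strand at chr17:25489875-25497288 and was highest at 4 weeks. Control pools measured 3.70, 8.25 and 10.7 (mean 7.53 ± 3.53, SD, n = 3) and DEX pools 2.24, 9.24 and 9.31 (mean 6.93 ± 4.06, SD, n = 3). The 1 week pools measured 6.37, 12.2 and 10.7 (mean 9.76 ± 3.04, SD, n = 3) and the 4 weeks pools 11.5, 25.1 and 19.9 (mean 18.9 ± 6.82, SD, n = 3). Control, DEX and 1 week overlapped, and all 4 weeks pools lay above the control and DEX pools. The log2 fold change was 1.37 ± 0.54 (SE) between 4 weeks and control and 1.61 ± 0.54 (SE) between 4 weeks and DEX, with limma adjusted p values of 0.714 and 0.229. The second passed with edgeR's likelihood ratio test (adjusted p = 0.0437) and with array weights (0.0233). Neither passed with the quasi-likelihood test or DESeq2, and the exact permutation p over the 4 groups was 0.142. The lactotroph sum was 86428 to 119867 at 4 weeks against 48203 to 73424 under DEX, and the thyrotroph sum 462 to 728 against 50.7 to 263. In control the thyrotroph sum was 127 to 282, which overlapped with DEX. Of the thyrotroph list, 1 of 3 genes passed between 4 weeks and DEX, namely *Tshb* (limma adjusted p = 0.0290), and no gene of the lactotroph list did. The part of these lists in the *Sstr5* values was not tested, nor that of the somatotroph list. The sums of that list were higher in all 4 weeks pools than in all DEX pools, but none of its genes passed in this comparison.

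The *Sstr2* to *Sstr5* ratio within a library does not depend on the scaling of libraries. It was 0.468, 0.229 and 0.296 in control pools, 0.296, 0.0531 and 0.0482 in DEX pools, 0.284, 0.396 and 0.656 at 1 week and 0.240, 0.279 and 0.615 at 4 weeks. The DEX pools 2 and 3 had the lowest ratios of all, but DEX pool 1, with the lowest *Sstr5* level, lay within the control range. The mean ratio and its SD over 3 pools were 0.331 ± 0.124 in control, 0.133 ± 0.142 under DEX, 0.445 ± 0.191 at 1 week and 0.378 ± 0.206 at 4 weeks. No test was made of the ratio.

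*Sstr1*, on the plus strand at chr12:58211772-58214444, measured 2.60, 2.71 and 3.37 in control, 1.74, 1.14 and 2.69 under DEX, 2.95, 8.92 and 3.78 at 1 week and 3.60, 2.52 and 1.71 at 4 weeks. All 1 week pools lay above all DEX pools, and the other groups overlapped with one another. The mean was 5.22 ± 3.24 (SD, n = 3) at 1 week against 1.86 ± 0.78 (SD, n = 3) under DEX, a log2 fold change of 1.35 ± 0.52 (SE) with a limma adjusted p of 0.317. *Sstr1* passed none of the tests across all genes, with limma, edgeR or DESeq2. Its exact permutation p over the 4 groups was 0.0657. It was 0.0373 without DEX pool 3, 0.0283 without the 1 week pool 1, and 0.0528 to 0.197 without any other single pool.

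*Sstr3*, on the minus strand at chr15:78537008-78544685, had the highest p of the receptor genes in the F test over the 4 groups (limma adjusted p = 0.931). It measured 9.28, 7.66 and 10.1 in control, 8.03, 8.99 and 11.1 under DEX, 7.89, 14.9 and 5.56 at 1 week and 12.8, 14.4 and 9.93 at 4 weeks. All groups overlapped, and the widest spread, 5.56 to 14.9, was between pools of the 1 week group. The log2 fold change between 4 weeks and control was 0.45 ± 0.36 (SE; limma adjusted p = 0.894), and the exact permutation p over the 4 groups was 0.485. Without the 1 week pool 2, the highest pool, the exact permutation p was 0.0299, and without any other single pool it was 0.386 to 0.786.

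*Sstr4*, a gene of a single exon block at chr2:148395344-148396767 on the plus strand, was close to the limit of detection. It measured 0.787, 0.118 and 0.544 in control, 0 in all DEX pools, 0.190, 0 and 0 at 1 week, and 0.370, 0.109 and 0.902 at 4 weeks. The control values came from 16 reads in all and those at 4 weeks from 15, with 0 reads under DEX and 2 at 1 week. A count of 0 allows up to 3 reads in a library, which is 0.245 to 0.336 normalised read counts in the DEX pools. Against this floor, averaged over the DEX libraries, the mean was at least 1.74-fold higher in control and at least 1.66-fold higher at 4 weeks. Both differences missed the threshold of limma, with adjusted p values of 0.415 and 0.235. The exact permutation p over the 4 groups was 0.0429. It exceeded 0.05 when any 1 of 8 pools was left out, up to 0.0757, namely control pools 1 (0.0604) and 3 (0.0708), each DEX pool (0.0757 for each), 1 week pools 2 and 3 (0.0631 for each) and the 4 weeks pool 1 (0.0584). It was also 0.0701 with a pseudocount of 1.

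The dopamine receptor *Drd2*, on the plus strand at chr9:49340627-49408177, showed no difference between groups that exceeded the spread of the pools. It measured 16.9, 34.8 and 56.0 in control, 53.1, 48.2 and 25.7 under DEX, 21.4, 25.1 and 52.4 at 1 week and 43.5, 66.8 and 50.8 at 4 weeks. All groups overlapped, and control pools differed among themselves more than group means did. The means were 35.9 ± 19.6, 42.3 ± 14.6, 33.0 ± 16.9 and 53.7 ± 11.9 (SD, n = 3 each) in that order. The log2 fold change between 4 weeks and control was 0.72 ± 0.43 (SE; limma adjusted p = 0.842), and the exact permutation p over the 4 groups was 0.460. The lactotroph list, made of *Prl* and the angiotensin receptor *Agtr1a*, summed to 31585 to 79029 in control, 48203 to 73424 under DEX, 43694 to 111817 at 1 week and 86428 to 119867 at 4 weeks. Its lowest pool was control pool 1, also the lowest for *Drd2*, whereas DEX pool 1, with the lowest sum of its group (48203), had the highest *Drd2* value of that group. Over the 12 pools, the Pearson r between the log2 sum and the log2 level of *Drd2* was 0.61. This was not particular to the lactotroph list. The r was 0.63 with the stem and folliculostellate list (*Sox2*, *Sox9*, *S100b* and *Cyp2f2*), 0.45 with the somatotroph list and -0.29 with the corticotroph list. The part of lactotroph RNA in the *Drd2* values was not tested.

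*Drd4*, which like *Drd2* lowers cyclic AMP, lies on the plus strand at chr7:141292006-141296464. It measured 1.42, 3.65 and 5.44 in control, 7.04, 5.40 and 8.63 under DEX, 3.23, 7.52 and 8.34 at 1 week and 5.45, 5.14 and 7.76 at 4 weeks. The control pools were low, but the highest of them exceeded the lowest pool of each other group. Mean levels were 3.50 ± 2.01 in control and 7.02 ± 1.62 under DEX (SD, n = 3 each), a log2 fold change of 1.15 ± 0.50 (SE) with an unadjusted p of 0.0344 and a limma adjusted p of 0.696. The exact permutation p over the 4 groups was 0.183. The *Drd2* to *Drd4* ratio was 9.52 to 11.9 in control, 2.97 to 8.94 under DEX, 3.34 to 6.62 at 1 week and 6.55 to 13.0 at 4 weeks. All control pools therefore had a higher ratio than all DEX and 1 week pools, whereas the 4 weeks pools overlapped with each of these groups. No test was made of this ratio, which was computed after the values were seen.

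**Figure D3:**
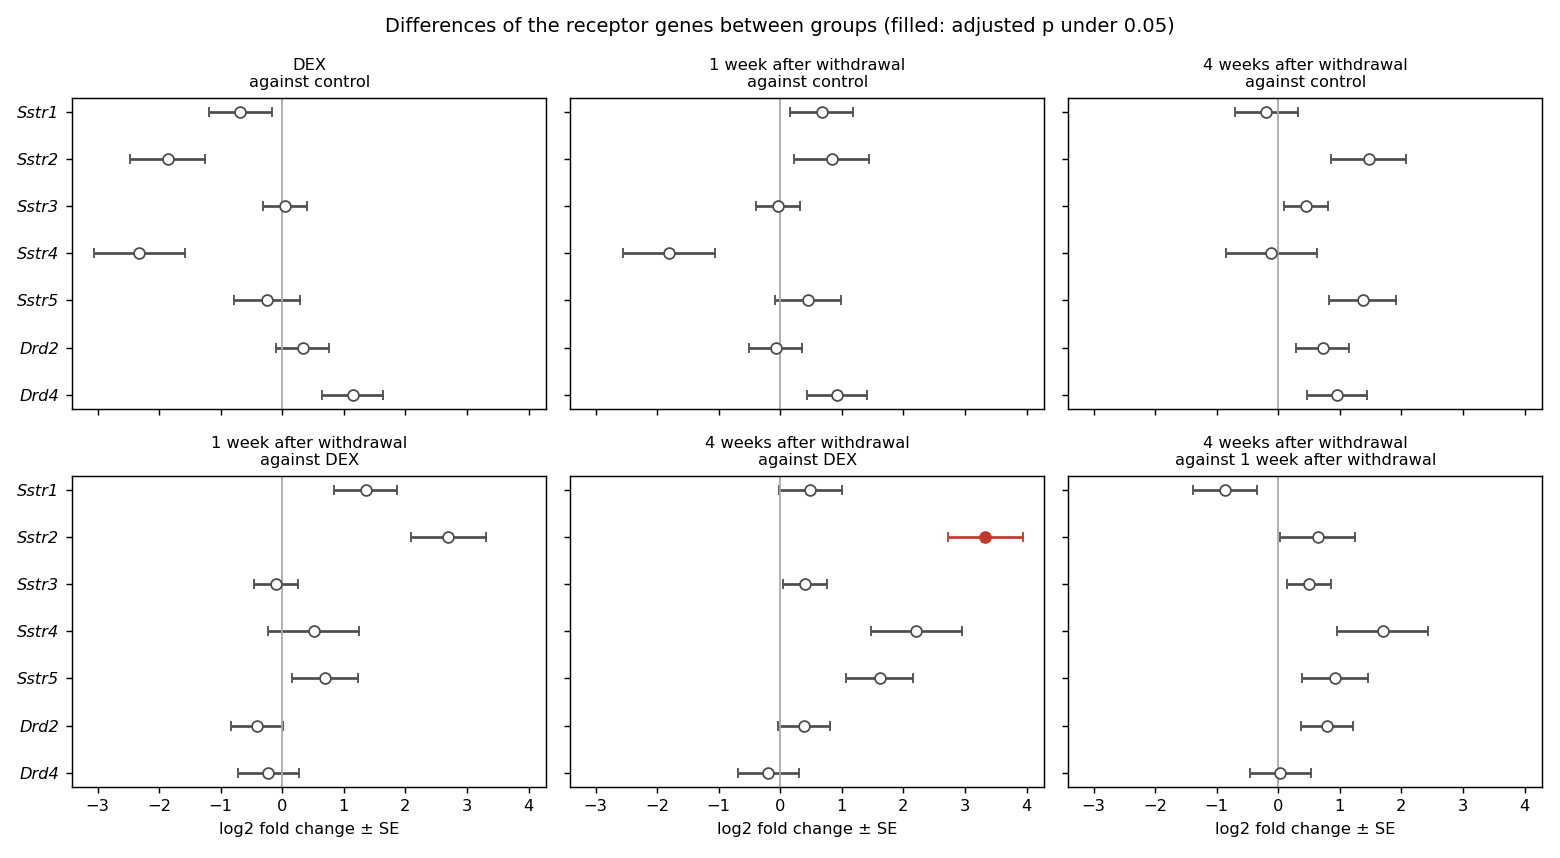
Log2 fold change ± SE of each receptor gene (rows) in the 6 pairwise comparisons (panels), on the log2(value + 0.1) scale of the limma fit over all 12 pools. The filled point is the difference with an adjusted p under 0.05, *Sstr2* between 4 weeks and DEX at 3.33.

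Against DEX, groups without overlap were found for 3 receptor genes at 4 weeks (*Sstr2*, *Sstr4* and *Sstr5*), where 19.5% of all genes did not overlap, and for 2 at 1 week (*Sstr1* and *Sstr2*), where 13.8% did not. Between DEX and control there were 2 (*Sstr2* and *Sstr4*) against 12.8% of all genes. Between 4 weeks and control there was 1 (*Sstr5*) against 13.2%. Neither 1 week with control nor 4 weeks with 1 week gave any such receptor gene, against 6.08% and 8.92% of all genes. In the main limma test the share of all genes called was 0.121% between DEX and control and 0% in the other comparisons with control and between the withdrawal groups, with 0 of the 7 receptor genes in each. At an unadjusted p under 0.05, these 4 comparisons held 3, 1, 2 and 1 of the receptor genes and 1682, 938, 1570 and 1352 of all genes, in the order DEX, 1 week and 4 weeks against control and 4 weeks against 1 week. The quasi-likelihood test, the likelihood ratio test and DESeq2 also called none of the receptor genes in them. Over the 7 receptor genes, the median log2 fold change was -0.24 between DEX and control, beside -0.02 over all genes. It was 0.49 between 4 weeks and DEX, beside 0.00 over all genes, with 6 of the 7 above 0 against 50.4% of all genes. For 1 week and 4 weeks against control it was 0.44 and 0.72, with 4 and 5 of the 7 above 0 (50.2% and 49.7% of all genes). For 1 week against DEX it was 0.51 with 4 above 0 (51.8%), and for 4 weeks against 1 week 0.64 with 6 above 0 (47.4%). Between DEX and control 3 were above 0 (47.8%).

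Levels were compared between genes as normalised read counts per kb of exon. *Drd2* was the most abundant receptor gene, with a mean of 16.2 ± 6.27 per kb (SD over 12 pools), and lay above *Sstr5* in 12 of 12 pools. *Sstr5* followed at 3.94 ± 2.33 per kb and *Sstr3* at 2.33 ± 0.66 per kb, with *Sstr5* the higher in 10 of 12 pools. *Sstr2* had 1.71 ± 1.66 per kb, *Drd4* 1.70 ± 0.66 per kb and *Sstr1* 1.54 ± 0.97 per kb. These neighbours did not differ beyond their spread, since *Sstr2* was above *Drd4* in 5 of 12 pools and *Drd4* above *Sstr1* in 6 of 12. *Sstr4* was last, at 0.177 ± 0.229 per kb, and lay below *Sstr1* in 12 of 12 pools. *Sstr3* lay above *Sstr2* in 10 of 12 pools. By group means, the place of *Sstr2* in this order differed. Its mean was 0.249 per kb under DEX, below that of every receptor gene except *Sstr4*. At 4 weeks its mean was 3.43 per kb, above that of *Sstr3* at 2.87 per kb. This order of means rested on pool 3, where *Sstr2* measured 5.73 and *Sstr3* 2.30 per kb. In the 4 weeks pools 1 and 2 *Sstr2* was the lower, at 1.29 and 3.27 against 2.97 and 3.34 per kb.

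**Figure D4:**
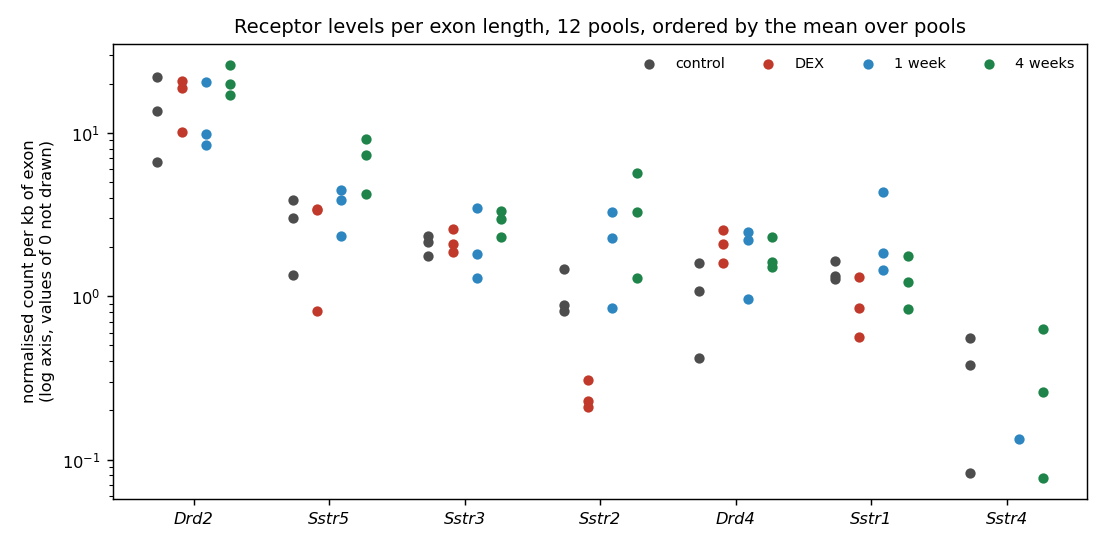
Normalised read counts per kb of exon (log axis) of the 7 receptor genes in the 12 pools, coloured by group and ordered by the mean over pools. *Drd2* is highest, at 6.64 to 26.2 per kb, and the *Sstr2* pools under DEX (red, 0.209 to 0.309 per kb) lie apart from its other pools; the values of 0 of *Sstr4* are not drawn.

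The genes whose pattern over the 12 pools was most like that of *Sstr2*, among 15756 genes with a mean level of at least 1, were *H2-DMb1* (Pearson r = 0.939), *Abhd15* (0.932) and *H2-Eb1* (0.931). *H2-DMb1* and *H2-Eb1* belong to MHC class II, the proteins with which macrophages, dendritic cells and B cells present antigen. For *Sstr5* they were *Slc29a3* (0.944), *Igfbp4* (0.928) and *Smim22* (0.922). For *Drd2* they were *Ptprs* (0.937), *Nptxr* (0.932) and *Mettl23* (0.925), for *Drd4* *Nrsn2* (0.932), *6330537M06Rik* (0.921) and *Zfp691* (0.912), and for *Sstr3* *Heyl* (0.947), *Sqor* (0.889) and *Cx3cl1* (0.852). For *Sstr1* they were *Gm4131* (0.881), *Bola3* (0.877) and *Cnpy4* (0.870). Among the receptor genes themselves, *Sstr2* and *Sstr5* were the most alike (0.651), followed by *Drd2* and *Drd4* (0.555). These are descriptions over pools that share group and library scaling. *Sstr4* was left out because its level was too low.

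The pathway around the receptors was followed in a list of 44 genes, of which 43 had enough reads to be tested. It covers the ligands and their synthesis, the other dopamine receptors, inhibitory G alpha subunits, adenylyl cyclases, potassium channels, phosphatases, receptor kinases, arrestins and scaffolds. By the limma F test 0 of the 43 passed, 3 had an unadjusted p under 0.05 (9.21% of all genes did), and in the 6 pairwise comparisons 0 passed in either direction. At an unadjusted p under 0.05 the pairwise counts were 0, 2 and 2 for DEX, 1 week and 4 weeks against control, 7 and 4 for 1 week and 4 weeks against DEX, and 2 for 4 weeks against 1 week. The shares of all genes in these comparisons were 6.80%, 3.79% and 6.35%, 10.8% and 9.94%, and 5.47%. The quasi-likelihood test called 0 in the test over the groups, the likelihood ratio test 2 and DESeq2 1, where they called 0.639%, 4.22% and 2.97% of all genes. These were the cyclases *Adcy2*, called by both of the latter, and *Adcy4*. *Adcy2*, a cyclase stimulated by G protein beta gamma subunits, had a mean and SD over 3 pools of 27.2 ± 9.54 in control, 44.0 ± 22.7 under DEX, 12.5 ± 6.89 at 1 week and 19.8 ± 2.87 at 4 weeks. All DEX pools lay above all pools of both withdrawal groups, whereas the *Sstr2* pools under DEX were the lowest (limma adjusted p of *Adcy2* over the groups = 0.190). *Adcy4* was low, at 0 in all control pools and at most 1.09 elsewhere. *Adcy2* and *Adcy4* are named after their values were seen.

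The other genes of the list are named by their mean normalised read counts over the 12 pools, the 2 highest of each group, with no correction for length. Of the ligand genes, the somatostatin gene *Sst* was listed at 0 in all pools. *Ddc* and *Th*, enzymes of dopamine synthesis, had means of 4.23 and 3.42. The other dopamine receptor genes *Drd1* and *Drd3* had means of 0.10 and 0.0705. The inhibitory G alpha subunits through which both receptor families signal summed to 504 to 651 in all pools, led by *Gnai2* (302) and *Gnao1* (105). Of the adenylyl cyclases that they inhibit, *Adcy6* (35.9) and *Adcy5* (26.3) had the highest means. The potassium channel subunits *Kcnj3* and *Kcnj6*, which form channels opened by these receptors, had means of 19.5 and 15.3. Among the phosphatases, *Ptpn11* (83.2) and *Ptpn6* (43.7) led, which encode SHP2 and SHP1. Of the kinases and arrestins that desensitise receptors, *Grk3* and *Grk6* each had a mean of 19.4. Of the scaffolds, *Flna* (80.4), whose filamin A binds the type 2 somatostatin receptor, and *Shank1* (38.6) were highest. None of these genes passed the limma F test or a pairwise contrast.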

How the data were processed

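RNA from sorted *Pomc*-eGFP positive cells was measured in 12 libraries, 3 pools in each of 4 groups, with groups and pool numbers taken from the labels. Per the labels and the study's methods, the authors amplified RNA that was below the detection limit. They trimmed reads with Trim Galore 0.6.5 and aligned them to GRCm38 (Ensembl release 98) with STAR 2.7.1a. Pairs of mapping quality 20 or more were counted with featureCounts 2.0.0 in strand-specific mode and analysed with edgeR. That the libraries do not mark strand is inferred here from the kits named. The authors deposited, for each gene and library, a normalised signal, which is the CPM relative to the TMM effective library size. Column sums of 823964 to 1423897, unequal between libraries, show that it is not plain CPM, which the design had assumed. Whole reads could be recovered for 100% of the 271881 values above 0, within a tolerance of 1e-06.

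The main test was limma 3.58.1 (R 4.3.3; lmFit, eBayes with trend) on log2(value + 0.1) of the 24736 genes above 0.1 in at least 3 libraries, with all 12 libraries in 1 model, an F test over the 3 contrasts with control, 6 pairwise contrasts and Benjamini-Hochberg adjustment over all genes tested. An adjusted p under 0.05 was called. Single genes were compared with two-sided exact permutation tests of their log2 levels. edgeR 4.0.16 and DESeq2 1.42.0 were run on the recovered reads. Scripts were tested on simulated data. Exon lengths and positions came from GENCODE M21 and promoters from RefSeq. The receptor genes, the gene lists and the tests were chosen with earlier results of these data known. The genes named are the receptor genes, the genes of the fixed lists and the 3 genes most like each receptor gene, by Pearson r of log2 levels. *Slc39a11* was added because it surrounds *Sstr2*. Replicates are pools, and p-values measure the spread between pools. No library pair of a group agreed within sampling noise, with a chi-square per gene of 15.9 to 144.6.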

Additional observations from a re-analysis of the deposited data

How the results depend on the processing

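The count of receptor genes past the F test over the 4 groups, 0 with limma, was 1 with array weights, robust moderation, edgeR's quasi-likelihood test and DESeq2, 2 with edgeR's likelihood ratio test and 0 to 1 with single pools left out. The count of calls in the pairwise contrasts, over pairs of a receptor gene and a contrast, was 1 in the main fit. It was 2 with array weights (*Sstr2* and *Sstr5*), 2 with the quasi-likelihood test and with DESeq2 (both *Sstr2*), 3 with the likelihood ratio test (*Sstr2* and *Sstr5*), 0 with only the groups compared in the model and 0 to 2 with single pools left out. Over all genes, 78 passed the F test, 1069 with array weights, 158 with the quasi-likelihood test, 1043 with the likelihood ratio test, 734 with DESeq2 and 7 to 186 with single pools left out. That count moved by over 1.5 times without control pool 2 (46), DEX pool 1 (12), DEX pool 3 (7), the 1 week pools 1 (130) and 3 (186) and the 4 weeks pools 1 (46), 2 (29) and 3 (36). The cause was not tested, other than that leaving out a pool leaves fewer samples.

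With the replicate block, 3 pairs of a receptor gene and a contrast passed, with *Sstr2* between 1 week and DEX (adjusted p = 0.0465) and *Sstr5* between 4 weeks and DEX (0.0405) added. The labels do not say what, if anything, same-numbered pools of different groups share. Such pools had correlations of -0.29 to 0.40 in their deviations from the group means, 7 of 18 pairs over 0.1. Their median was 0.056, against -0.014 for pools of different numbers, and 8 of 12 pools correlated best with a pool of their own number. Whether the numbers stand for a shared step was not tested.

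For the 14 contrasts of receptor genes followed across alternatives, 334 of 348 alternative values kept their direction and their side of the threshold, 8 newly passed it, 6 no longer passed it and 0 changed sign. The other pseudocounts, the filters, median ratio scaling and quantile normalisation changed no call of these contrasts. *Sstr4* had no row with the filter at 1. Values near 0.1 rest on about 1 read, which limits *Sstr4*. The DEX level of *Sstr2* is limited by its 4 to 8 reads per pool.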
